A study of Drosophila melanogaster with 54 samples.

Results

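The mRNA of smg, which encodes the translational repressor Smaug, was followed through egg activation in Drosophila melanogaster. It was found by its symbol in the input and gradient tables and by its transcript in the footprint table, and is 1 gene of 14250 in the input tables, of 5088 listed in all 6 gradients and, as a transcript, of 5842 in the footprint table. The gene was chosen by its gradient shares and footprints in these libraries, which were known beforehand, so all of its values are given as a description, with no test. Mature (stage 14) oocytes were picked by hand from collagenase-treated ovaries of OregonR females, 4 days old and fattened on yeast. Activated eggs were laid within 2 h by virgin OregonR females kept with twine (HB5) males, which make no sperm, so the eggs were activated but not fertilised. Mutant eggs came in the same way from mothers homozygous for a mutation in the kinase gene png (png1058/png1058). Each stage of the OregonR material had 2 replicate sucrose gradients and 1 made after puromycin (2 mM), which makes elongating ribosomes let go of the mRNA, and each gradient had an unfractionated input. Each gradient was split into 6 parts: free RNA-protein particles (RNPs), the 40S part, the 60S and 80S part, and low (2 to 4 ribosomes), medium (5 to 9) and heavy (more than 10) polysomes. The footprint series held 12 libraries, 1 of RNA and 1 of ribosome-protected fragments for oocytes, eggs and png eggs, in the presence and in the absence of cycloheximide, which stalls elongating ribosomes. Within a cycloheximide state every sample was single, and nothing in the labels says that replicate gradients came from separate flies.

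Smaug binds stem-loops in maternal mRNAs through its SAM domain and represses them with the eIF4E-binding protein Cup and the CCR4-NOT deadenylase, which removes their poly(A) tails. Its own mRNA is loaded into the oocyte and is known to be held silent there, with Pumilio among the repressors, until egg activation switches on the PAN GU kinase, made of the products of png, plu and gnu. The Smaug made in the early embryo then represses nanos mRNA outside the germ plasm and brings about the decay of Hsp83 and many other maternal mRNAs.

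In the Ensembl annotation of the BDGP6 genome smg lies on the minus strand of chromosome arm 3L, where 0 other genes overlap it. It has 5 transcripts, and 4 of them share a coding sequence of 2997 bases for a protein of 999 residues. The coding sequence is longer than those of 88.7% of 13986 coding genes, whose median is 1173 bases. The files were made on the build dm3, so no coordinates are given.

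Most libraries fitted their labels, with 1 exception that touches smg and a weaker departure in the egg inputs. In the library labelled egg puromycin input, all 9 follicle cell markers (eggshell and yolk protein genes) stood above 1 RPKM, reads per kilobase scaled to library size, and summed to 28650 RPKM. In the oocyte inputs, in which follicle cells still surround the oocyte, they summed to between 12740 and 28010 RPKM, whereas in the egg inputs without puromycin 0 of 9 were above 1 RPKM, 7 and 4 of them listed at 0. Its 6 germline markers summed to 605.5 RPKM, against 1047 to 1389 RPKM in the other inputs. The egg puromycin gradient itself listed 1 of 9 follicle markers, which made up 0.000862% of its table, and its sums over fractions had a rank correlation across genes of 0.569 with its own labelled input, against 0.902 to 0.972 for the other 5 gradients. The labels give this input the barcode that the RNP part has in the other 5 gradients, and the RNP part that of the input. Whether this touches the RNP share of the egg puromycin gradient, and the shares computed with it, was not tested. The labelled input is kept apart below. By the same rank correlation, the egg puromycin gradient was closest to the oocyte puromycin input, at 0.91. The gradient of egg replicate 2 was closer to the input of egg replicate 1, at 0.962, than to its own, at 0.902. What this means for the labels of the egg inputs, and so for their smg values, was not tested. Germline markers were above 1 RPKM in all inputs. Low values in 4 of the 6 inputs fell on steps that a single read would give, from which, with exon lengths of the annotation, oocyte replicate 2 and egg replicate 2 were estimated at 2640000 and 15900000 reads and smg at about 4430 and 24500 reads. The inputs labelled oocyte and egg puromycin came to 8640000 and 12300000 reads, and the depth of all other libraries is unknown. The mutated gene itself could not check the png labels by its RNA, which stood at 92.1 and 96.9 RPKM in png eggs and at 101 and 102 RPKM in eggs.

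The inputs gave the total level of smg mRNA at each stage. Oocytes held 278.9 and 281.6 RPKM of smg in replicates 1 and 2, and eggs held 144.6 and 258.3 RPKM. Both egg values lay below both oocyte values, but the egg inputs differed from each other by more than the nearer egg value differed from the oocytes. Smg was an abundant mRNA throughout, above 90.9% to 96.8% of the genes with a value above 0 in these 4 inputs. With puromycin the oocyte input held 538.3 RPKM, and the library labelled egg puromycin input 104.2 RPKM, the lowest of the 6. The difference between stages was -0.53 on the log2(RPKM + 1) scale, beside a median of -0.09 over all 6622 genes tested, and 962 genes had a smaller value. It was -0.95 without egg replicate 2 and -0.12 without egg replicate 1. Inputs and RNA libraries were poly(A)-selected, so shorter tails and fewer molecules cannot be told apart, and neither can fewer cells of a type and less RNA per cell.

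In oocytes smg mRNA was spread over the ribosome-bearing parts of the gradient and almost missing from free particles. The RNP part held 0.553% and 0.858% of smg mRNA, the 40S part 6.36% and 3.3%, and the 60S and 80S part 27.3% and 29.9%, in replicates 1 and 2. Low polysomes held 26.4% and 25.0%, medium polysomes 20.6% and 21.0%, and heavy polysomes 18.8% and 19.9%. In both replicates the largest part was the 60S and 80S part, and 10.7% and 20.7% of genes had a lower share in free particles. These percentages of genes are over the genes listed in a gradient, which all have a heavy polysome value of 4 or more.

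In activated eggs the distribution was wider, with more smg mRNA at both ends of the gradient. Free particles held 7.98% and 8.7%, the 40S part 13.3% and 5.55%, and the 60S and 80S part 12.7% and 16.0%. Low polysomes held 14.8% and 29.1%, medium polysomes 17.2% and 15.5%, and heavy polysomes 34.0% and 25.1%. The largest part was heavy polysomes in replicate 1 and low polysomes in replicate 2, so the egg replicates did not share a peak. Heavy polysomes held 1.97 and 1.61 times as much smg mRNA as medium polysomes in eggs, against 0.91 and 0.948 times in oocytes.

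The heavy share was 19.3% ± 0.813 (SD, n = 2) before and 29.5% ± 6.31 after activation, and the 2 groups did not overlap. Over all listed genes the mean of the gradients' median heavy shares went the other way, from 17.8% to 11.1%, so that smg stood above 57.2% and 59.3% of genes in oocytes and above 93.2% and 81.6% in eggs. Free particles went from 0.705% ± 0.216 to 8.34% ± 0.506, where the median gene went from 3.66% to 15.3%. The 60S and 80S part went from 28.6% ± 1.84 to 14.3% ± 2.38, also without overlap. Medium polysomes went down without overlap as well, from 20.8% ± 0.276 to 16.4% ± 1.19, where the median gene went from 16.5% to 13.4%. How many of all genes show no overlap in a part was not counted, so the lack of overlap says little by itself. The share in medium and heavy polysomes together, the polysomal share, was 40.1% ± 1.09 and 45.9% ± 7.49 (SD, n = 2). That share overlapped between the stages, since replicate 1 eggs stood at 51.2% and replicate 2 eggs at 40.6%, beside 39.4% and 40.9% in oocytes. As log2 odds against the other 4 parts the change was 0.34, and 0.03 without egg replicate 1. How the fractions are scaled against each other moved it: once every fraction was divided by its own sum over genes, the polysomal shares were 38.2% and 43.6% in oocytes against 61.1% and 49.3% in eggs, which no longer overlap, and the log2 odds change was 0.84.

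**Figure D1:**
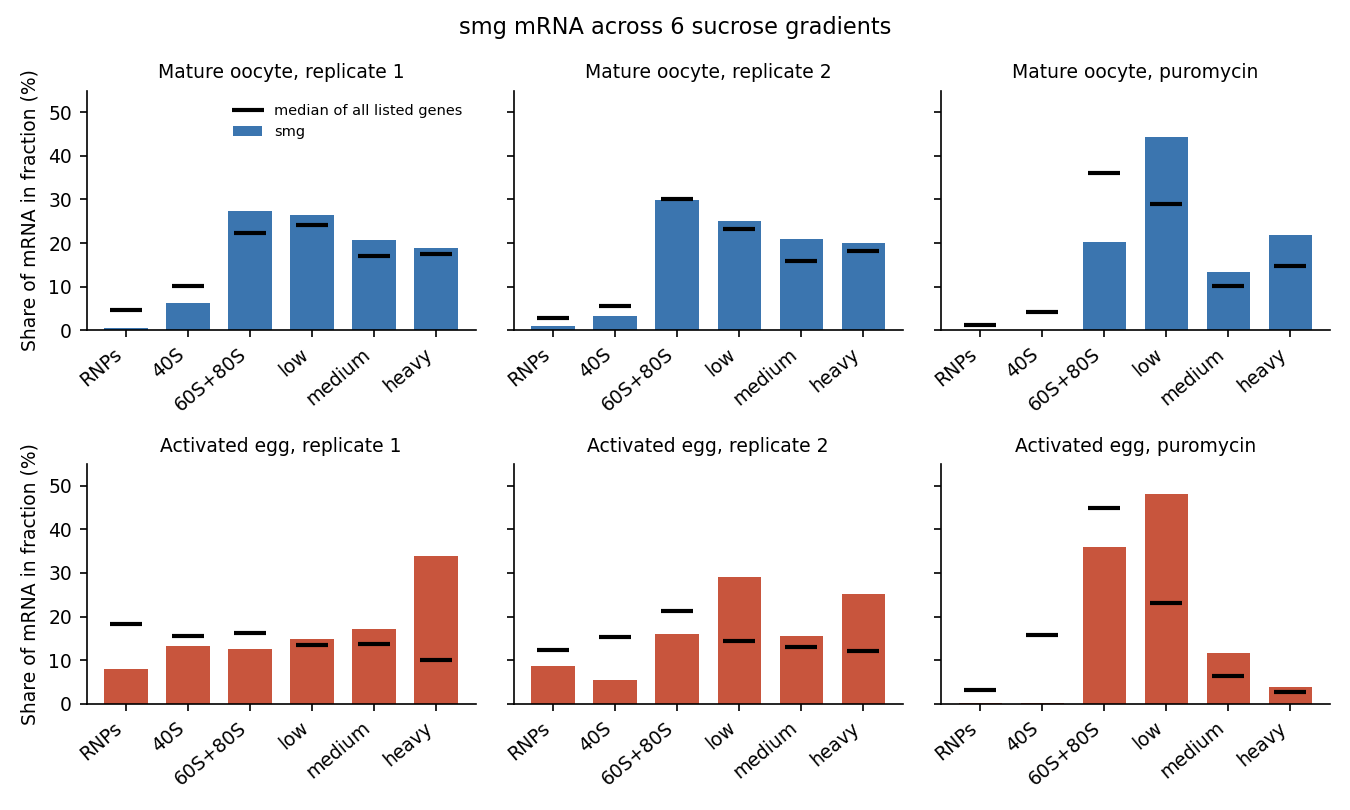
Share of smg mRNA in each of the 6 parts of each gradient (bars, percent of the gene's sum over the parts), with the median share of all genes listed in that gradient (black lines); top row oocytes in blue, bottom row eggs in red, each panel 1 gradient. In eggs without puromycin the heavy bars, at 34.0% and 25.1%, stand well above the median gene, and in both puromycin gradients the low polysome bar is the highest.

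Puromycin was used to ask whether mRNAs sedimenting with polysomes were being translated. In the oocyte puromycin gradient smg was at 0.142% in free particles, 0.0425% in the 40S part, 20.2% in the 60S and 80S part, 44.4% in low, 13.3% in medium and 21.9% in heavy polysomes. In the egg puromycin gradient the same parts held 0.17%, 0.208%, 35.9%, 48.2%, 11.7% and 3.82%. Low polysomes held the most in both, and little smg was lighter than the 60S part in either. The polysomal share was 35.2% in oocytes, a difference of -4.94 percentage points from the mean without puromycin, while the median of 5829 genes changed by -9.69 points and 67.6% of genes fell further. In eggs it was 15.5%, a change of -30.4 points, beside a median of -17.8 points over 5191 genes, of which 27.7% fell further. After puromycin the heavy part alone held 21.9% in oocytes, above both untreated gradients, and 3.82% in eggs, below both.

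In oocytes the direction of the polysomal difference turned with the scaling of the fractions. When every fraction was divided by its own sum over genes, the polysomal share of smg was 60.7% after puromycin in oocytes, above both untreated gradients, and 52.1% in eggs, between the untreated gradients at 49.3% and 61.1%. The heavy part alone kept its direction, at 31.6% after puromycin against 18.9% and 20.5% in oocytes, and at 22.6% against 44.7% and 32.7% in eggs. Each stage had 1 puromycin gradient, whose lysis and gradient buffers differed from those of the others and lacked cycloheximide. The drug and the buffers cannot be told apart. The summed normalized value of smg over the 6 parts was also high in both, at 4067 and 6147 in the oocyte and egg puromycin gradients against 334.1 to 1042 in the 4 untreated gradients. As a share of the sum over all listed genes it was 0.0532% and 0.0853% after puromycin and 0.00681% to 0.0231% without.

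Ribosome footprints gave a far larger difference between the stages than the gradients did. Without and with cycloheximide, smg RNA stood at 352.5 and 378.4 RPKM in oocytes and at 232.1 and 211.6 RPKM in eggs. Its footprints stood at 66.55 and 11.5 RPKM in oocytes and at 1349 and 1092 RPKM in eggs. Every egg footprint value was over every oocyte value, and the RNA went the other way. Translational efficiency (TE), the footprint RPKM divided by the RNA RPKM, was 0.189 and 0.0304 in oocytes but 5.81 and 5.16 in eggs.

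Without cycloheximide the egg TE was thus 30.7 times the oocyte TE, and with it 170 times, while the RNA was at 0.658 and 0.559 of its oocyte level. The median TE of all transcripts was 0.757 and 0.526 in oocytes, then 1.02 and 1.07 in eggs. In oocytes 794 and 46 of 5842 transcripts had a lower TE than smg, and in eggs 5646 and 5521 did. Smg thus went from the low end of the transcripts to the high end in both states.

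The size of the ratio hung on the oocyte footprint libraries, which disagreed about smg. Its oocyte footprints were 5.79 times as high without cycloheximide as with it, a log2 difference of 2.43 that was the largest among 5842 transcripts, whose median was 0.41. In eggs the same ratio was 1.24 and in png eggs 0.877. Between the RNA libraries it was 0.932, 1.1 and 0.952 in oocytes, eggs and png eggs. The 2 follicle markers in the footprint table moved between these oocyte footprint libraries as well, from 26000 RPKM without to 75000 RPKM with cycloheximide. Their part in the smg difference was not tested.

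In png eggs smg mRNA was abundant but carried few footprints. The RNA stood at 752.9 and 790.6 RPKM without and with cycloheximide, and the footprints at 11.11 and 12.67 RPKM. The TE was 0.0148 and 0.016, lower than in either oocyte library, and 37 and 27 of 5842 transcripts had a lower one. The TE of OregonR eggs was 393 and 322 times as high, the footprints 121 and 86.2 times as high. The RNA of png eggs was 3.24 and 3.74 times that of OregonR eggs and 2.14 and 2.09 times that of oocytes. Compared with oocytes, the png egg footprints were at 0.167 of the oocyte level without cycloheximide and at 1.1 times it with cycloheximide, so the states differ on that direction.

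**Figure D2:**
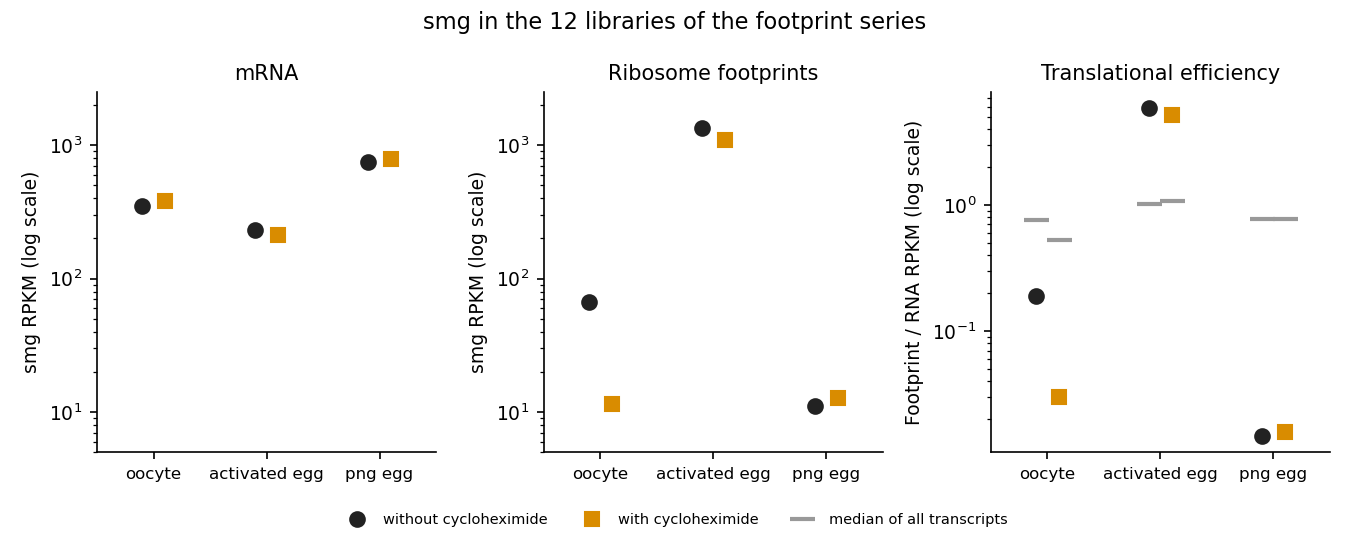
RNA, ribosome footprints (both RPKM, log scale) and translational efficiency (footprint over RNA RPKM, log scale) of smg in oocytes, activated eggs and png eggs; black circles are the libraries without and orange squares those with cycloheximide, 1 library each, and grey lines are the median TE of all transcripts. Footprints and TE are high in OregonR eggs only, while RNA is highest in png eggs, and the oocyte points are the pair that stand apart from each other.

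Set beside all other transcripts, the change of smg was the most extreme in both TE comparisons when all 12 libraries were used. On the scale of log2 TE with 1 RPKM added, its rise from oocytes to eggs was 6.10 and 0 of 5840 tested transcripts had a larger value, where the median was 0.50. The bin starting at 6.0 held 3 transcripts, smg among them, so others lay close. The spread of the smg rise between cycloheximide states was 1.8. Without the oocyte pair with cycloheximide the rise was 4.85, and its rank there was not computed. From OregonR eggs to png eggs the TE of smg changed by -8.36, and 0 transcripts had a smaller value, where the median was -0.11. Its RNA change from eggs to png eggs was 1.79, exceeded by 2 transcripts, and from oocytes to eggs -0.72, with 82 transcripts lower. In the gradients its polysomal change of 0.34 was exceeded by 1193 of 5088 genes. The 2 TE comparisons and the 2 RNA comparisons share the egg libraries and are not independent of each other.

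**Figure D3:**
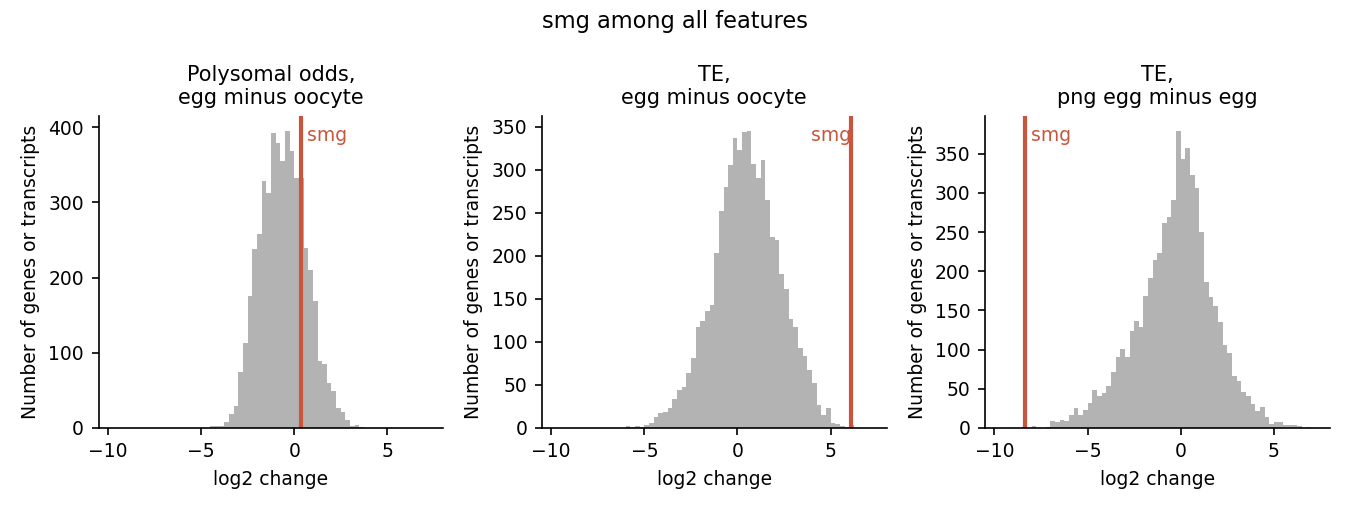
Number of genes (left panel) or transcripts (middle and right) by log2 change in bins, with smg as a red line; the left panel shows log2 odds of the polysomal share, the others log2 TE with 1 RPKM added. Smg lies in the upper part of the gradient distribution, at 0.34, and at the outer edge of both TE distributions, at 6.10 and -8.36.

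The genes whose profile was most like that of smg differed between the assays. Over the 24 fractions of the 4 untreated gradients, and among 5087 genes, the highest Pearson correlations across fractions were those of CG6701 (0.96), Ino80 (0.952), which encodes a chromatin remodelling ATPase, CG7028 (0.951), par-1 (0.95), which encodes a polarity kinase, and CG30020 (0.95). These values share gradient and scaling, and 63 genes were over 0.9. Ino80 held 21.8% and 18.3% in heavy polysomes in oocytes and 40.7% and 28.4% in eggs. The heavy share of par-1 was 22.5% and 22.9% in oocytes, then 32.3% and 27.7% in eggs. Both genes were picked for their likeness to smg over these same fractions, so their higher heavy share in eggs follows from the choice.

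Over the 12 libraries of the footprint series, with log2 values centred per assay, 928 of 5841 transcripts were over 0.9. The closest was Su(var)3-7 (0.998), a heterochromatin protein gene, followed by a transcript with no gene name here (0.998), Dref (0.997), a transcription factor gene, Ptp61F (0.996), a tyrosine phosphatase gene, and Dek (0.996), a chromatin protein gene. The TE of Su(var)3-7 was 0.768 and 0.302 in oocytes, 7.52 and 8.51 in eggs, then 0.21 and 0.204 in png eggs. That of Dref was 0.599 and 0.264, 4.79 and 5.35, and 0.183 and 0.179. In eggs the TE of Dref was close to that of smg and that of Su(var)3-7 was above it, and in oocytes and png eggs both lay above smg. Their oocyte footprints were lower with cycloheximide, at 25.4 against 63.0 RPKM for Su(var)3-7 and 12.7 against 29.5 RPKM for Dref. Both were picked over libraries that include these, so a likeness to smg here follows from the choice. The median over all 5842 transcripts was also lower with cycloheximide, by 0.41 on the log2 scale.

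**Figure D4:**
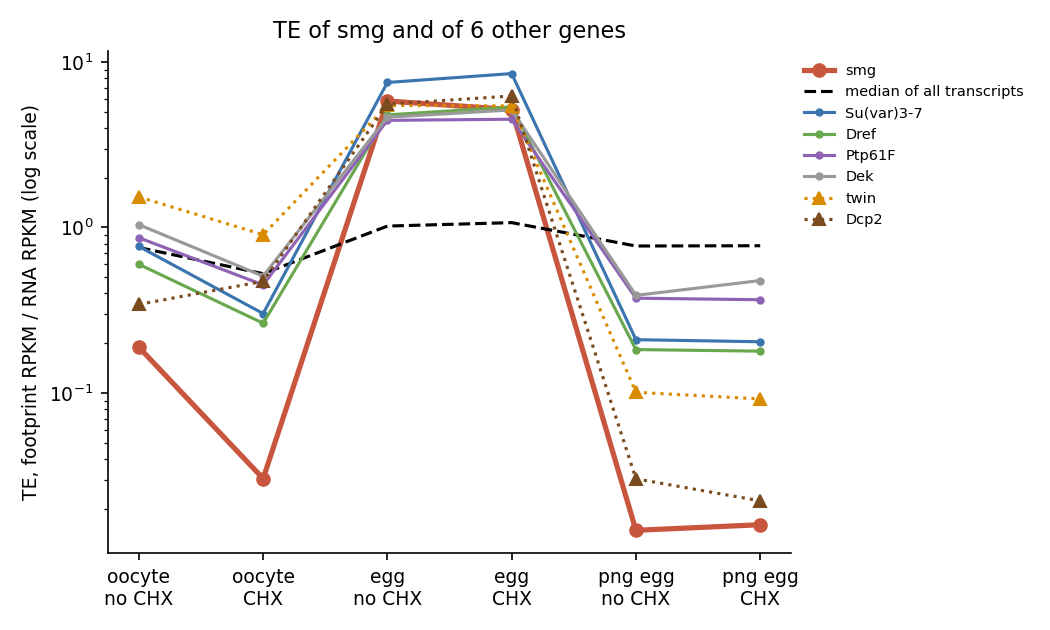
Translational efficiency (footprint over RNA RPKM, log scale) in the 6 library pairs for smg (thick red), the named transcripts most like it in the footprint series, twin and Dcp2 (dotted) and the median of all transcripts (dashed). In eggs the 7 genes lie between 4.44 and 8.51, and in png eggs smg, Dcp2 and twin lie lowest.

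The pathway around Smaug was described with 5 lists of 60 genes in all, from the PAN GU subunits to the mRNAs that Smaug acts on; nos, me31B and Edc3 stand in 2 lists each. Values are TE without and then with cycloheximide, and a gene is called higher or lower where the limma fit over all features gave an adjusted p under 0.05. For TE those p-values rest only on how the cycloheximide difference varied among oocytes, eggs and png eggs, since its mean per assay was fitted. For the polysomal share they rest on the spread between 2 replicate gradients. Of all features, 70.7% were called in TE between oocytes and eggs (46% higher, 24.7% lower), 70.1% between png eggs and eggs (32.1% higher, 38% lower), and 69.1% in the polysomal share (18.2% higher, 51% lower), so a single call says little. Scaling moved the last split, from 924 higher and 2593 lower to 1802 and 1522 with every fraction divided by its own sum, and to 1594 and 1883 with gradients centred on their median. With libraries centred on their median the TE calls went from 2686 higher and 1445 lower to 1883 and 2565 at activation, and from 1876 and 2218 to 2762 and 1823 in png eggs. That centring moved the median TE change from 0.50 to -0.27 and from -0.11 to 0.43. In RNA, 0.394% of transcripts were called between oocytes and eggs (0.0685% higher, 0.325% lower) and 6.15% between eggs and png eggs (4.32% higher, 1.83% lower), and 3.47% of genes were called in the inputs (0.423% higher, 3.05% lower).

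The PAN GU subunits and other regulators of maternal mRNA translation did not move as one. This list held png, gnu, plu, pum, nos, brat, wisp, aret and bcd, not all of them known to act on smg. Of the 9 genes 0 were higher, 7 lower and 2 not called in polysomal share, with a median log2 odds change of -2.01 beside -0.60 over all genes. The kinase gene png had 37.4% and 32.5% polysomal mRNA in oocytes and 12.1% and 11.4% in eggs, a log2 odds change of -2.01 ± 0.18 SE (limma adjusted p = 0.000187). Its activator gene gnu fell as well, from 50.4% and 44.9% to 20.8% and 20.2% (limma adjusted p = 0.000236). For plu, the third subunit gene, oocytes had 52.8% and 43.5% and eggs 30.7% and 58.6%, which overlap, and it was not called (limma adjusted p = 0.71). Without egg replicate 1 it was called higher at log2 odds 0.61, and without egg replicate 2 lower at -1.07.

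In TE 3 of the 9 were higher, 4 lower and 2 not called at activation, and 4 were higher, 3 lower and 2 not called in png eggs against eggs. The TE of png was 0.564 and 0.296 in oocytes, 0.178 and 0.101 in eggs, then 1.88 and 1.95 in png eggs, lower in eggs (log2 -1.53) and higher in png eggs (3.74); the first call ended without the egg pair with cycloheximide (limma adjusted p = 0.0657). The TE of brat, which encodes a Pumilio and Nanos cofactor, was 0.342 and 0.15 in oocytes, 6.41 and 7.56 in eggs, then 0.696 and 0.847 in png eggs. For bcd, the anterior morphogen gene, it was 0.0401 and 0.0312, then 1.47 and 1.52, then 0.437 and 0.558. Both were called higher at activation (log2 4.88 and 3.91) and lower in png eggs (-3.16 and -1.51). The repressor gene pum had a TE of 1.08 and 0.449 in oocytes and 2.3 and 2.75 in eggs, called higher (limma adjusted p = 0.00217, and 0.0845 without the egg pair with cycloheximide), and 1.73 and 1.88 in png eggs, not called. Its polysomal share fell, from 51.7% and 48.7% to 19.7% and 14.0%, so footprints and gradients gave opposite directions for pum. They did so for bcd too, which was called lower in polysomal share (log2 odds -1.125, limma adjusted p = 0.0337). How this bcd call fares under the alternatives is not given here. Over all features the medians had opposite signs as well, at -0.60 in polysomal odds and 0.50 in TE.

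Among 10 Smaug partners, proteins that act with it in repressor complexes, 0 were higher, 9 lower and 1 not called in polysomal share (median -2.04). With every fraction divided by its own sum 1 was higher and 7 lower, and with centred gradients 1 and 8. The mRNA of cup went from 55.9% and 51.3% in oocytes to 11.7% and 13.0% in eggs, and that of tral, which encodes an RNA particle protein, from 67.6% and 61.5% to 15.0% and 15.1%. The helicase gene me31B went from 51.2% and 49.3% to 20.3% and 19.9%. All 3 fell (log2 odds -3.02, -3.36 and -2.00), as did Fmr1 and bel, which encode RNA-binding and helicase proteins (-2.65 and -2.43). Aub, a piRNA-binding Argonaute gene, was the one not called (0.43).

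In TE 3 partners were higher and 6 lower at activation, and 4 were higher and 4 lower in png eggs against eggs. With libraries centred on their median the counts were 2 higher and 7 lower, then 5 higher and 3 lower. The TE of cup was 4.51 and 3.41 in oocytes, 0.935 and 0.804 in eggs, then 3.97 and 3.57 in png eggs, lowest in eggs, where that of smg was highest. Also lower in eggs were osk (-2.19), me31B (-2.04) and tral (-1.46), and higher were the Argonaute gene AGO1 (3.65), with 0.332 and 0.353 in oocytes and 4.01 and 5.16 in eggs, and the decapping enhancer gene Edc3 (2.53). AGO1 and Edc3 were called lower in polysomal share (log2 odds -0.962 and -0.502), so the signs differed between the assays for them as well. Edc3 lay above the median of all genes in polysomal odds, -0.60, while the median in TE was 0.50. The medians thus had opposite signs too, and how many of all genes do was not counted. In png eggs against eggs tral (2.82), eIF-4E (2.45), which encodes the cap-binding protein, and cup (2.11) were higher and aub was lower (-3.61), while me31B was not called (-0.31).

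In the CCR4-NOT deadenylase, 1 of 8 genes was higher, 6 lower and 1 not called in polysomal share (median -1.06). With every fraction divided by its own sum 2 were higher and 3 lower, and with centred gradients 2 and 4. The gene called higher was twin, which encodes the CCR4 deadenylase subunit, with 38.5% and 39.5% in oocytes and 56.4% and 47.6% in eggs. This call (log2 odds 0.76, limma adjusted p = 0.02) ended without either oocyte replicate or without egg replicate 1, and with low polysomes counted as polysomal the value turned to -0.22. The scaffold gene Not1 (-2.47) and l(2)NC136 (-1.91), which encodes the subunit Not3, were lower.

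In TE 2 of the 8 were higher and 1 lower at activation, a balance that turned to 1 higher and 5 lower with libraries centred on their median. The TE of twin was 1.53 and 0.905 in oocytes, 5.46 and 5.43 in eggs, then 0.101 and 0.0921 in png eggs, changes of 2.20 ± 0.25 SE and -5.73 ± 0.25 SE on the log2 scale (limma adjusted p = 4.59e-05 and 3.14e-07). Its RNA was 82.0 and 71.9 RPKM in eggs and 172 and 176 RPKM in png eggs, called higher (log2 1.17, limma adjusted p = 0.00842), though not when any 1 egg or png egg library pair was left out. Rga, which encodes the subunit Not2, was higher at activation (1.13) and lower in png eggs (-1.91), and the activation call ended with centred libraries (0.36). In png eggs 4 of the 8 were higher and 3 lower.

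Of 9 decapping genes 8 were listed in all gradients, of which 1 was higher, 6 lower and 1 not called in polysomal share. The higher one was Dcp1, the decapping cofactor gene (0.46, limma adjusted p = 0.0377), named after its values were seen. Its call ended with the replicate block (limma adjusted p = 0.0565), with any 1 replicate gradient left out and with heavy polysomes alone, and with low polysomes included the value turned to -0.26. With every fraction divided by its own sum 2 of the 8 were higher and 4 lower. The decapping enzyme gene Dcp2 was not listed in the 4 untreated gradients. In TE 3 were higher and 4 lower at activation, and 4 were higher and 3 lower in png eggs. The TE of Dcp2 was 0.343 and 0.473 in oocytes, 5.56 and 6.23 in eggs, then 0.0303 and 0.0223 in png eggs, changes of 3.71 and -6.91 on the log2 scale (limma adjusted p = 1.34e-05 and 4.52e-07). Its footprints in png eggs were 1.29 and 1.07 RPKM, so the log2 change with 1 RPKM added understates the ratio. The RNA of Dcp2 was higher in png eggs (log2 1.03, limma adjusted p = 0.0397), a call lost when any 1 egg or png egg library pair was left out, with centred libraries and with a pseudocount of 0.1. Patr-1, which encodes a decapping activator, was higher at activation (3.08) and lower in png eggs (-2.81), and the Sm-like ring genes LSm1 and LSm7 went the other way, at -2.07 and -2.19, then 2.87 and 3.24. In RNA between eggs and png eggs 2 of the 60 genes were called, twin and Dcp2, where 15 of the 60 had an unadjusted limma p under 0.05. In RNA between oocytes and eggs 0 of 60 were called by limma, with 9 at an unadjusted p under 0.05, and in the inputs 0 of 60, with 4.

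The list of Smaug targets held nos, Hsp83, chaperonin subunits and proteasome regulatory subunits, whose mRNAs are known to be bound or destabilised by Smaug. Of 27 genes 0 were higher, 25 lower and 2 not called in polysomal share, with a median of -1.81. With every fraction divided by its own sum, 2 were higher and 19 lower. Hsp83 went from 41.0% and 39.5% in oocytes to 17.5% and 13.9% in eggs, and nos from 19.1% and 19.5% to 5.8% and 5.06%. The largest falls were those of the proteasome subunit gene Rpn2 (-2.69) and the chaperonin subunit genes CG8258 (-2.68), Tcp-1zeta (-2.66) and CG7033 (-2.42).

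In TE 0 of the 27 were higher, 20 lower and 7 not called at activation (median -1.15, beside 0.50 over all transcripts), and 24 were higher, 2 lower and 1 not called in png eggs against eggs (median 1.57, beside -0.11). With libraries centred on their median the counts were 0 higher and 25 lower, then 25 higher and 0 lower. The 20 called at activation and the 24 called higher in png eggs thus moved against smg. The TE of Hsp83 was 2.58 and 2.44 in oocytes, 1.44 and 1.06 in eggs, then 5.46 and 4.86 in png eggs (log2 -1.03 and 2.06; limma adjusted p = 0.000799 and 9.25e-06). That of CG8258 was 2.02 and 1.83, then 0.528 and 0.313, then 3.82 and 3.77. Rpn11 and Tbp-1, which encode proteasome regulatory subunits, were lower at activation (-2.12 and -1.90), and CG7033 (2.90), CG5525 (2.73) and Rpn11 (2.72) were higher in png eggs.

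The exceptions in png eggs were nos and Rpn5, both lower (-1.46 and -0.75), and Rpn12, not called, and the call of nos ended with centred libraries (-0.92, limma adjusted p = 0.168) and without the egg pair without cycloheximide or either png egg pair. The call of Rpn5 ended with centred libraries as well (-0.21, limma adjusted p = 0.343), and without the egg pair with cycloheximide or either png egg pair. Rpn5 and Rpn12 are named after their values were seen. The TE of nos was low everywhere, at 0.0119 and 0.0277 in oocytes, 0.0461 and 0.0305 in eggs, then 0.0134 and 0.0124 in png eggs. Its footprints lay between 2.68 and 14.9 RPKM, and the oocyte and egg values did not overlap, but the difference was not called (log2 0.84, limma adjusted p = 0.134); without the oocyte pair with cycloheximide it was (1.48, limma adjusted p = 0.00357). In footprint-series RNA 0 of 27 targets were called by limma in either comparison, with 1 and 5 at an unadjusted p under 0.05. Hsp83 stood at 1390 and 1320 RPKM in oocytes, 1160 and 1110 RPKM in eggs and 1090 and 1140 RPKM in png eggs.

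**Figure D5:**
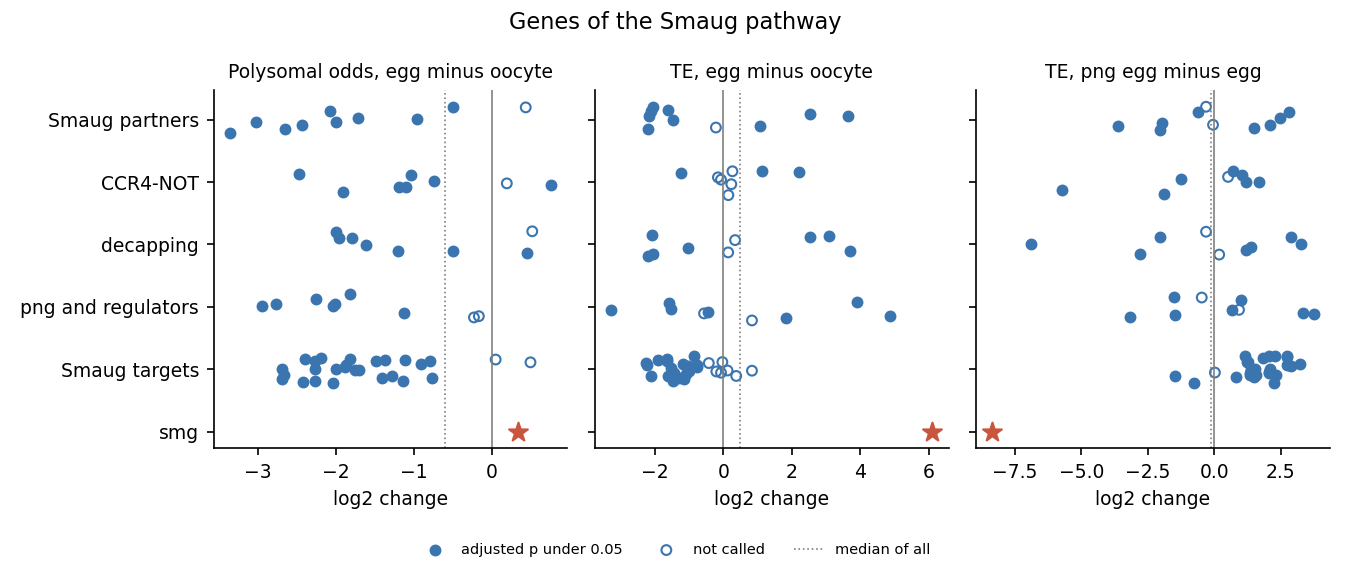
Log2 change of each gene of the 5 lists (rows; points spread vertically for sight only) in polysomal odds and in TE, with smg as a red star; filled points passed an adjusted p of 0.05, open points did not, solid lines mark 0 and dotted lines the median of all features. In the middle and right panels the Smaug targets lie mostly on the side of 0 away from smg, and in the left panel most genes lie below 0.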

How the data were processed

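Input tables held RPKM values made by the authors, and fraction tables RPKM values the authors normalized further, per the file headers, beside a fraction column per part, deposited from 0 to 1. Yeast mRNA (5 ng) was added per fraction, per the series design. How it entered the values is not given. The labels differ between gradients: for replicate 1 of each stage they name 14 spiked fractions, and for the egg and both puromycin gradients 5 ng of luciferase RNA as well. No gene in the gradient tables has a heavy polysome value under 4. For 5842 transcripts the authors deposited RPKM of RNA and footprints, whose lowest values show an edge in oocyte RNA, as a filter there would give. TopHat 1.3.2, Bowtie, HTSeq, FastQC and dm3 are named in the submitters' processing notes, without roles.

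Shares were computed from the normalized values. Tests used limma 3.58.1 (R 4.3.3; lmFit, eBayes with trend; two-sided; Benjamini-Hochberg over all features; threshold 0.05): log2 odds of medium and heavy polysomes with 1 added to each side over 6 gradients, log2(RPKM + 1) over 4 inputs, and log2(RPKM + 1) over 12 libraries with a cycloheximide term per assay, where TE is the interaction. RNA and footprint libraries of a sample entered as independent. Filters were a mean sum of 10 and a mean of 1 RPKM. Scripts were tested on simulated data; python 3.11.15, pandas 2.3.3, numpy 2.4.6 and matplotlib 3.10.9 were used.

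The gene, the lists and the tests were chosen with earlier results of these data known. By rule, named were smg, up to 4 called members per list and comparison with the largest change, 10 fixed genes (png, gnu, plu, pum, nos, Hsp83, cup, tral, me31B, twin) and the 5 most similar genes per assay. Outside this rule stand the polysomal values of AGO1, Edc3, bcd, aub and Dcp1. So do the TE change of LSm1 at activation and those of Rpn5 and Rpn12 in png eggs. Names were matched for 5784 transcripts to RefSeq gene records. Sequences are not shown, since none was used here. Alternatives covered pseudocounts, filters, scalings, polysome definitions, a replicate block and each library left out.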

Additional observations from a re-analysis of the deposited data

Results flagged for a closer look

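Differences in which the 2 or 3 groups moved in opposite directions under the same contrast are listed here; none of these differences between groups was tested, and each rests on 1 puromycin library per stage, set against the mean of 2, or on 1 library per cycloheximide state. The share of smg mRNA in the 60S and 80S part was 8.44 percentage points lower after puromycin in oocytes (a difference of -8.44) and 21.6 points higher in eggs. Its heavy polysome share differed by 2.57 points in oocytes and by -25.7 points in eggs. In the inputs the puromycin value minus the untreated mean was 258.0 RPKM in oocytes and -97.3 RPKM in eggs, where the latter uses the library labelled egg puromycin input, whose follicle markers go against its label; without that library eggs have no puromycin input. The log2 ratio of RNA without to with cycloheximide was -0.102 in oocytes, 0.133 in eggs and -0.0704 in png eggs. For footprints it was 2.43 in oocytes, 0.305 in eggs and -0.175 in png eggs.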

How the results depend on the processing

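The smg log2 changes kept their sign under every alternative run. The polysomal change of 0.34 became 0.836 with every fraction divided by its own sum, 0.848 with gradients centred on their median and 0.794 with heavy polysomes alone, and ranged from 0.0312 to 0.645 with a replicate left out. The input change ranged from -0.949 to -0.117 with a replicate left out. The TE change at activation ranged from 4.85 to 7.36 with a library pair left out. That in png eggs was -7.95 with a pseudocount of 5, -7.81 with centred libraries and from -9.09 to -7.63 with a pair left out, and its RNA change there from 1.69 to 1.91; the RNA change at activation ranged from -0.828 to -0.609.

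Counts of called features moved by more than 1.5 times in the inputs and in footprint-series RNA. Of the inputs 230 genes were called, 57 with no filter on low values, and from 197 to 1726 with a replicate left out, the last without egg replicate 2. Same-numbered replicates did not deviate together (Pearson r of deviations -0.0295 over gradients and -0.0276 over inputs, across genes). This cannot show that they share nothing but a number, since the labels name the same spiked fractions for replicate 1 of each stage. With the replicate block 370 genes were called in the inputs and the smg polysomal change was 0.338. In RNA at activation 23 transcripts were called, 56 with a pseudocount of 5, 128 with centred libraries and 8 to 46 with a pair left out. In RNA of png eggs 359 were called, 609 with a pseudocount of 5, 882 with centred libraries and 3 (without either egg pair) to 1756 (without the oocyte pair with cycloheximide) with a pair left out, which leaves a group 1 library assumed to vary like the rest. The cause was not tested. Leaving out the puromycin gradients, chosen after seeing the data, gave 3683 calls of 5374 genes in the polysomal share, where 3517 of 5088 were called; more genes are listed in the 4 gradients than in all 6.

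The 106 genes named by rule with their comparison leave out those named outside it, of which Dcp1 and Rpn5 lost their calls as described above. Among the 106, 10 lost their call under at least 1 alternative, and 15 changed sign under at least 1. Of these the main value was called only for twin in the polysomal share, at -0.216 with low polysomes included; plu in the polysomal share, not called, turned to 0.61 without egg replicate 1. Depth is unknown for the footprint series, so how far counting error limits footprint values near 1 RPKM cannot be said.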
